A study of Mus musculus with 2 samples.

Results

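The genes described here are the muscle microRNA (miRNA) genes of the mir-1 family, to which Mir206 belongs, and of the mir-133 family: Mir206, Mir133b, Mir1a-1, Mir1a-2, Mir1b, Mir133a-1, Mir133a-2 and Mir133c. They were taken by gene symbol and make up 8 of the 2202 miRNA genes in the deposited tables. Small RNA below 30 bases was sequenced from the gastrocnemius, a calf muscle, of 4-day-old female B6CASTF1/J mice, the first-generation cross of the C57BL/6J and CAST/EiJ strains. There was 1 group of 2 libraries and no treatment, genotype or age to compare. Per the labels each library came from a differently numbered female, and both carry the same strain-level donor entry. Own-strand gene counts came to 5569392 in library 1 and 4336759 in library 2. In addition, 3842752 reads of library 1 and 3187607 of library 2 stood in a line for reads that matched several places and belonged to no gene.

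A miRNA gene is transcribed as a longer RNA that folds into a hairpin, from which 2 arms, 5p and 3p, can be cut. The mature miRNA pairs with messenger RNAs mainly through its seed, bases 2 to 8. Genes of the mir-1 and mir-133 families lie side by side in vertebrate genomes and can be transcribed together, under the control of myogenic factors such as MyoD and myogenin. The mir-1 family is known to promote differentiation of muscle cells, and mir-133 is known for its part in myoblast proliferation and in the regulation of serum response factor. Mir206 is restricted to skeletal muscle, while Mir1a and Mir133a are also expressed in the heart.

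The sequences of Mir206 and Mir133b are shown because these genes gave the highest and the second highest counts of the 8, and because they differ in how much sequence other genes share with them. RefSeq mature sequences (build GRCm38.p6) were found for 3 of the 8 genes, with 5 arms. The first lines give each arm 5′ to 3′ with the seed in capitals. The last lines give the hairpins of Mir206 (chromosome 1, plus strand, 20679010 to 20679082) and Mir133b (chromosome 1, plus strand, 20682769 to 20682887) with the 3p arm in capitals.
miR-206-3p: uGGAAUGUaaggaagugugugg
miR-206-5p: aCAUGCUUcuuuauauccucaua
miR-1a-1-5p: aCAUACUUcuuuauaugcccaua
miR-133b-3p: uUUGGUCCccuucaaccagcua
miR-133b-5p: gCUGGUCAaacggaaccaaguc
Mir206 hairpin: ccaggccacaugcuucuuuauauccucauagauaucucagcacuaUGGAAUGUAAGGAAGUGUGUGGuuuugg
Mir133b hairpin: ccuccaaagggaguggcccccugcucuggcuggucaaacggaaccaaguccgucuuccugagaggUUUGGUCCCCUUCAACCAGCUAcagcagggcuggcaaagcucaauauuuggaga

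The 3p arms of Mir206 and Mir133b carried different seeds, GGAAUGU and UUGGUCC. Over their 22 bases these arms were identical at only 4 positions. The 5p arms of Mir206 and Mir1a-1 were closely alike, with 20 of 23 bases identical. From miR-1a-1-5p to miR-206-5p the substitutions were A5G, G17C and C19U, counted from the 5′ end. The first of them lies within the seed, so these arms have different seeds. The seed of miR-206-3p is known to be shared by mature miR-1, and that of miR-133b-3p by mature miR-133a, but the 3p arms of the Mir1a and Mir133a genes were not part of the search by seed. That search covered the 1738 mature sequences in the RefSeq table. Outside the families described here, it found the seed of miR-206-3p in Mir6349 and Mir6382, and both of these genes had 0 counts in both libraries.

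The annotated sequences differed in how far they could be told apart. The first 11 bases of miR-206-3p were enough to separate it from every other counted gene. The longest stretch Mir206 shared with any counted gene was 13 bases, a length found with both Mir1a-1 and Mir1a-2. In contrast, miR-133b-3p became unique only at its full 22 bases. Its first 21 bases, the seed among them, also occurred in Mir133a-1 and Mir133a-2, so a read that lacks the last base matches 3 of the counted genes. The 5p arm of Mir133b was unique from its first 9 bases. Mir1a-1 and Mir1a-2 shared 28 bases, and Mir133a-1 and Mir133a-2 shared 31 bases, which is longer than a whole mature arm. Of all windows of 22 bases, 49 of 56 were unique to Mir1a-1, 44 of 51 to Mir1a-2, 34 of 47 to Mir133a-1 and 70 of 83 to Mir133a-2. All windows of that length were unique in Mir206, Mir133b, Mir1b and Mir133c. Windows are positions in the annotated sequence and not reads, so these numbers do not give the share of reads that can be assigned. No 3p arm was listed for the Mir1a and Mir133a genes, so whether the shared stretches hold it was not examined. Only the counted genes were searched, and copies elsewhere in the genome were not analysed here.

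**Figure D1:**
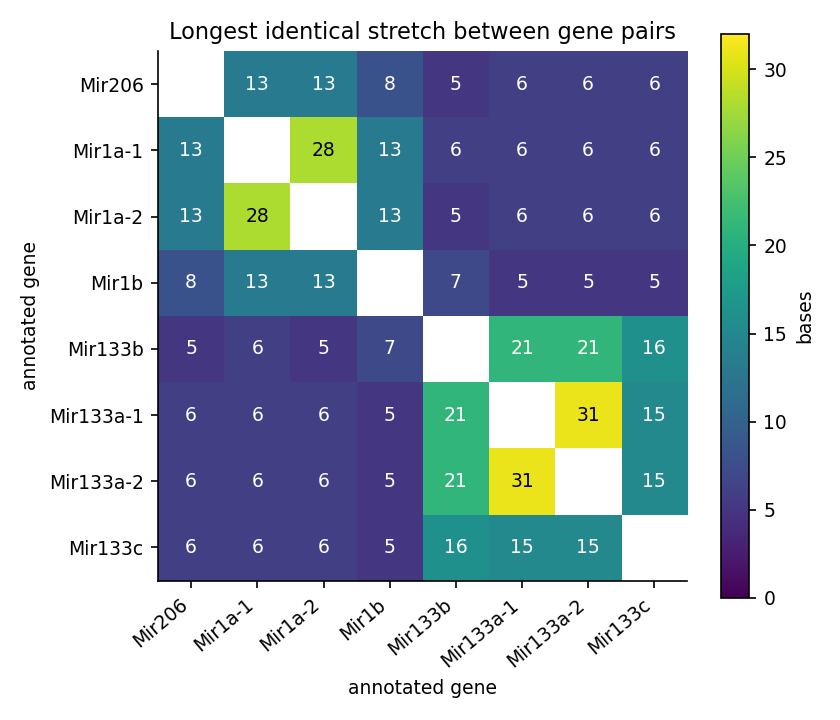
Longest identical stretch, in bases, between the annotated sequences of each pair of the 8 genes; both axes list the genes and the colour gives the length. The Mir1a-1 and Mir1a-2 pair (28 bases) and the Mir133a-1 and Mir133a-2 pair (31 bases) shared the most, followed by Mir133b with each Mir133a gene (21 bases), while Mir206 shared at most 13 bases.

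By position, 6 of the 8 genes formed 3 loci that each hold a mir-1 family gene and a mir-133 gene (mm10, GENCODE M21). Mir206 and Mir133b lie 3686 bases apart on the plus strand of chromosome 1. Both overlap the long noncoding RNA gene Gm28653. The Mir133b hairpin lies within an exon of both annotated transcripts of Gm28653, whereas the Mir206 hairpin lies in an intron of 1 transcript and only partly in an exon of the other. Mir1a-1 (180389048 to 180389124) and Mir133a-2 (180398379 to 180398482) lie 9254 bases apart on the plus strand of chromosome 2, where GENCODE M21 lists no overlapping gene. Mir1a-2 (10785481 to 10785552) and Mir133a-1 (10782909 to 10782976) lie 2504 bases apart on the minus strand of chromosome 18, in an intron of the host transcript Mir133a-1hg and antisense to introns of the ubiquitin ligase gene Mib1. The remaining genes stood outside that arrangement. Mir1b (10785446 to 10785567) lies on the plus strand of chromosome 18 and covers all 72 bases of Mir1a-2 on the opposite strand. Mir133c (29475215 to 29475294) lies on the minus strand of chromosome 2, antisense to an intron of the Mediator subunit gene Med27, 150913753 bases from Mir1a-1.

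Mir206 dominated the 8 genes in reads assigned to a single gene. It had 720323 counts in library 1 and 517475 in library 2, or 129336 and 119323 in counts-per-million units of own-strand gene counts (CPM). The mean was 124329 ± 7080 CPM (SD, n = 2), and no other miRNA gene had more counts in either library. Mir206 held 99.92% of the counts of the 8 genes in library 1 and 99.91% in library 2. Together the other 7 genes had 579 and 491 counts. As a share of every read in the library, unassigned reads included, Mir206 made up 6.91% and 6.10%.

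Within the mir-133 family, Mir133b held most of the counts assigned to a gene. Reads that matched several mir-133 genes are not in these counts, and how many there were was not tested. It had 444 counts in library 1 and 373 in library 2, or 79.7 and 86.0 CPM, with a mean of 82.9 ± 4.45 CPM (SD, n = 2). That was 94.3% of all mir-133 counts in library 1 and 93.0% in library 2. Mir133a-1 had 25 and 26 counts, or 4.49 and 6.0 CPM. Mir133a-2 had 2 counts in each library, 0.359 and 0.461 CPM. Mir133c had 0 counts in both, so its level may be up to 0.539 CPM in the first and 0.692 CPM in the second (the limit of 3 counts per library).

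The genes of the mir-1 branch were low next to Mir206 in assigned counts. Mir1a-2 had 91 and 77 counts, or 16.3 and 17.8 CPM, while Mir1a-1 had 13 and 9 counts, or 2.33 and 2.08 CPM. Mir1b had 4 counts in each library, 0.718 and 0.922 CPM. The 3 mir-1 genes summed to 108 and 90 counts. Mir1a-2 and Mir1b depended wholly on the strand of the reads, because they overlap. The 91 and 77 own-strand counts of Mir1a-2 were exactly the opposite-strand counts of Mir1b, the 4 and 4 of Mir1b were those of Mir1a-2, and both genes had 0 counts when strand was ignored.

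**Figure D2:**
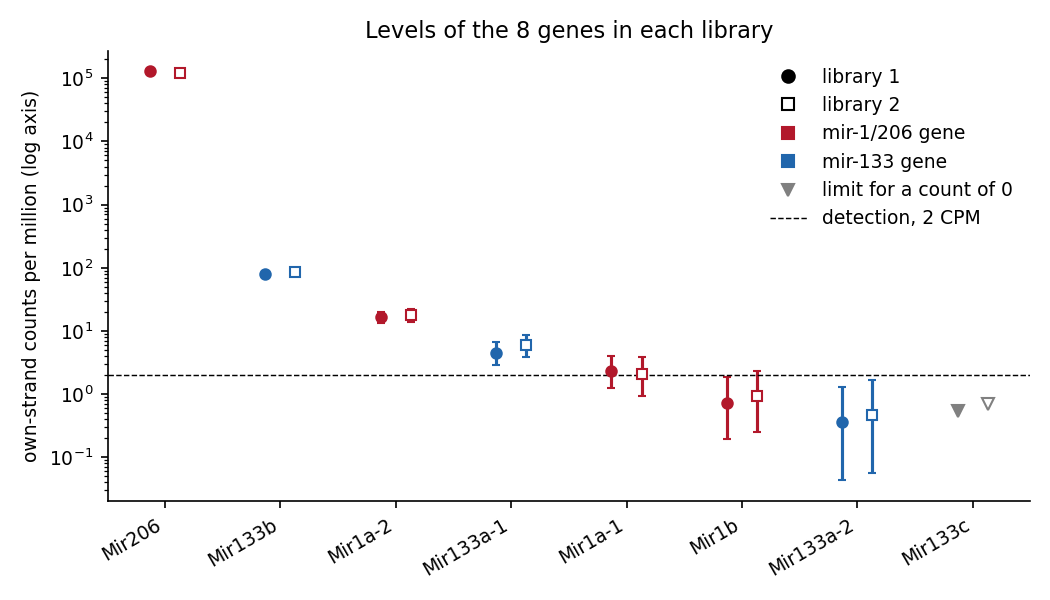
Level of each of the 8 genes in library 1 (filled circles) and library 2 (open squares) in CPM on a log axis, with exact Poisson 95% intervals that cover counting error only; grey triangles give the limit for a count of 0 and the dashed line marks 2 CPM. Mir206 at 129336 and 119323 CPM lies more than 3 powers of 10 above Mir133b at 79.7 and 86.0 CPM, and the 3 lowest genes lie below the line.

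Both libraries put the genes in the order Mir206, Mir133b, Mir1a-2, Mir133a-1, Mir1a-1, Mir1b, Mir133a-2 and Mir133c. The order was the same when CPM was divided by the annotated gene length. The levels of Mir206, Mir133b, Mir1a-2 and Mir133a-1 were separated by non-overlapping 95% counting intervals in both libraries. From Mir133a-1 downwards, the intervals of each gene and the next one overlapped in both libraries, so these neighbours were not separated at this depth. The intervals and the limit for a count of 0 cover counting error only: the reads carry no molecular identifiers, so several can stem from 1 RNA molecule.

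Genes that reached 2 CPM in each library were taken as detected, which held for 5 of the 8 genes and for 335 of all 2202 (15.2%). Among the 335 detected genes Mir206 ranked 1, Mir133b 189, Mir1a-2 243, Mir133a-1 296 and Mir1a-1 334. The median detected gene had 123 CPM, and of the 8 genes only Mir206 lay above it. For each detected gene the 2 genes closest in level over both libraries were found by the distance between log2(CPM + 0.5) values. No gene was close to Mir206: the nearest were Mir411 at a distance of 1.10 and Mir378a at 1.56. Mir133b was nearest to Mir34c (distance 0.03) and Mir669o (0.05), Mir1a-2 to Mir677 (0.04) and Mir184 (0.06), Mir133a-1 to Mir6923 (0.07) and Mir26a-1 (0.12), and Mir1a-1 to Mir8115 (0.09) and Mir325 (0.25). With 2 libraries of 1 group, this distance compares levels and not patterns across conditions.

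**Figure D3:**
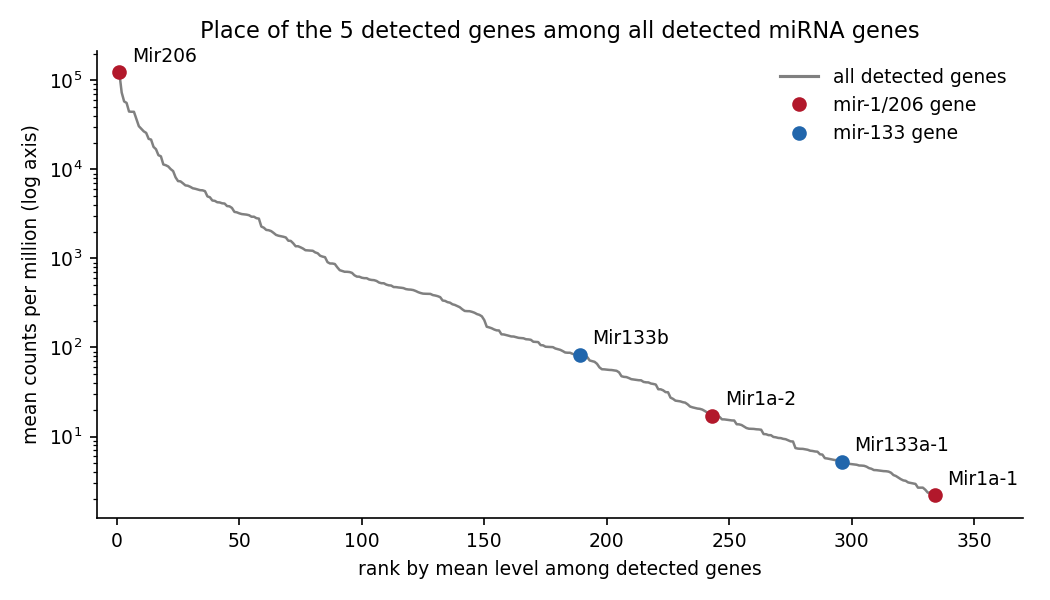
Mean level of the 335 detected miRNA genes in CPM (log axis) against their rank, with the 5 detected genes of the mir-1 family (red) and the mir-133 family (blue) marked. Mir206 stands at rank 1 with 124329 CPM and Mir1a-1 near the end of the curve at rank 334.

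Mature reads have about the same size whatever the hairpin, so ratios were taken from counts, and the ratio per base of annotated length is given beside them. At the Mir206 and Mir133b locus, Mir206 had 1622 counts for each count of Mir133b in library 1 (95% counting interval 1478 to 1785) and 1387 in library 2 (1253 to 1540). The mean was 1505 ± 166 (SD, n = 2), or 2453 ± 271 per base of annotated length. At the Mir1a-2 and Mir133a-1 locus the ratio was 3.64 in library 1 (2.32 to 5.92) and 2.96 in library 2 (1.88 to 4.81), or 3.12 ± 0.453 per base of length. At the Mir1a-1 and Mir133a-2 locus it was 6.50 (1.47 to 59.3) and 4.50 (0.931 to 42.8), or 7.43 ± 1.91 per base of length. The mir-1 family gene had more counts than its mir-133 neighbour at each of the 3 loci in both libraries, although the interval at the last locus reached below 1 in library 2. When strand was ignored, the ratio of Mir1a-2 to Mir133a-1 turned to 0, because Mir1a-2 then had no counts. The interval of the first locus did not overlap those of the other loci in either library. Whether each ratio differed between the libraries was tested after values were seen. Fisher's exact test (two-sided) gave p = 0.0278 for Mir206 to Mir133b, 0.527 for Mir1a-2 to Mir133a-1 and 1.0 for Mir1a-1 to Mir133a-2, with Benjamini-Hochberg adjusted values of 0.0833, 0.790 and 1.0 over the 3 ratios. The Mir206 to Mir133b ratio thus passed 0.05 only before adjustment. For Mir1a-1 to Mir133a-2, with 13 to 2 and 9 to 2 counts, no difference but an extreme one was detectable, and none of these p-values shows that a ratio was the same in both libraries.

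Between paralogous loci the counts were uneven as well. Mir1a-2 had 7.0 times the counts of Mir1a-1 in library 1 (3.90 to 13.6) and 8.56 times in library 2 (4.28 to 19.4). Mir133a-1 had 12.5 times the counts of Mir133a-2 in library 1 (3.12 to 109) and 13 times in library 2 (3.25 to 113). The locus on chromosome 18 thus had more assigned counts than the locus on chromosome 2 for both families. These are counts of reads that matched a single place, and the near-identical paralogs share the stretches given above. Reads that fall in those stretches cannot be divided between the genes and are not in these counts. The line for reads that matched several places held 5.33 times as many reads as Mir206 in library 1 and 6.16 times in library 2. How many of those reads came from mir-1 or mir-133 genes was not tested, and the levels of Mir1a-1, Mir1a-2, Mir133a-1, Mir133a-2 and Mir133b, and each ratio that uses them, are uncertain for that reason. Over the 303 detected genes with a RefSeq mature entry, 42 had an arm whose whole sequence occurs in a second counted gene, and their median level was 45.2 CPM, against 168 CPM for the other 261. When the first 18 bases were compared instead, the medians were closer, at 82.9 CPM for 53 genes and 148 CPM for the other 250. In both splits Mir1a-1, listed only with its 5p arm, counted as having no second gene, although it shares 28 bases with Mir1a-2. Mir1a-2 and Mir133a-1 had no entry and were left out.

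To place the Mir206 to Mir133b ratio, the same ratio was computed for every pair of adjacent detected miRNA genes on the same strand within 10 kb. Among 112 such pairs the median ratio of mean CPM, higher over lower, was 4.84 and the upper quartile was 21.1. Mir206 to Mir133b, at 1500, was the third highest of them. Above it were Mir431 to Mir3070a at 6896 and Mir382 to Mir544 at 2569, and below it Mir380 to Mir1197 at 1051 and Mir665 to Mir3070a at 675. Of these 5 pairs Mir206 to Mir133b was the only one whose lower gene had more than 10 CPM. When both genes had to reach 10 CPM, it ranked 1 of 95 pairs. The Mir1a-2 to Mir133a-1 ratio of 3.25 ranked 67, below the median. Mir1a-1 and Mir133a-2 were not among the pairs, since Mir133a-2 was not detected.

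**Figure D4:**
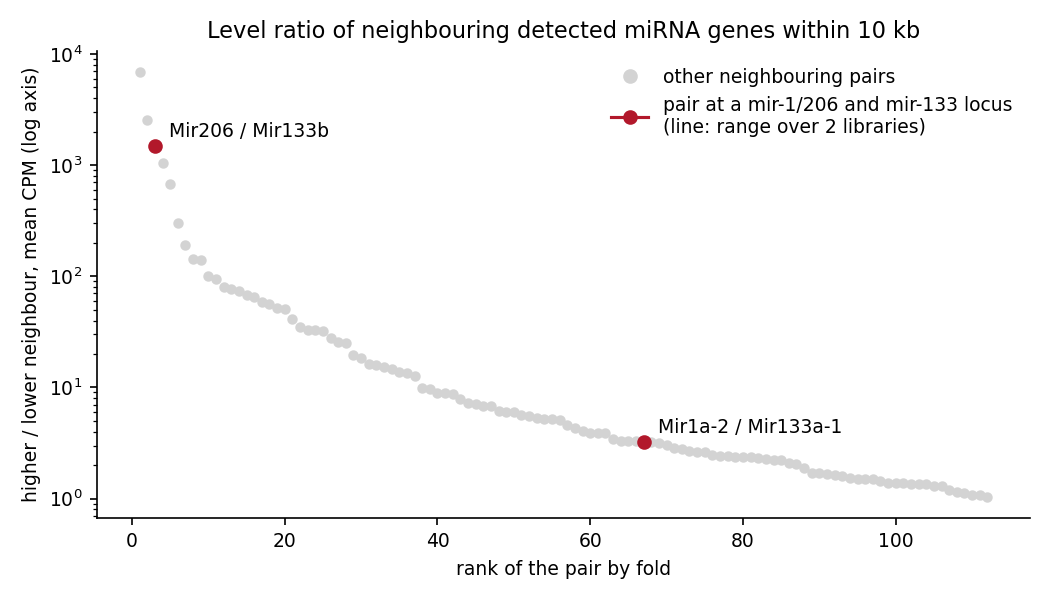
Ratio of mean CPM, higher over lower gene (log axis), for the 112 pairs of adjacent detected miRNA genes on one strand within 10 kb, ordered by ratio; the pairs at mir-1 and mir-133 loci are in red with a line for their range over the 2 libraries. Mir206 to Mir133b stands in the third place at 1500, and Mir1a-2 to Mir133a-1 at rank 67 with 3.25.

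The difference between the libraries was tested gene by gene on the counts (exact binomial test, two-sided), scaled by TMM and adjusted by Benjamini-Hochberg over the 335 detected genes. It compares these libraries and no conditions. Of the 5 genes tested, 1 was called lower in library 2 and 0 were called higher. Over all detected genes 55.5% were called, 26.9% as lower and 28.7% as higher in library 2, so 1 call among 5 genes was no larger a share than the background. The gene called was Mir206, with a log2 ratio of library 2 to library 1 of -0.14 (95% counting interval -0.14 to -0.13), a level 1.10 times as high in library 1, and of -0.21 without the filter on low counts. The size of that difference was below the median absolute log2 ratio of 0.21 over all detected genes. The other 4 genes were not called: Mir133b at 0.09 (-0.12 to 0.29, adjusted p = 0.519), Mir1a-2 at 0.10 (-0.36 to 0.55, adjusted p = 0.785), Mir133a-1 at 0.40 (-0.45 to 1.25, adjusted p = 0.446) and Mir1a-1 at -0.19 (-1.60 to 1.15, adjusted p = 0.887), by the same exact test. The median log2 ratio of the 5 genes was 0.09, and that of all detected genes was 0.03. The intervals of Mir133a-1 and Mir1a-1 were wide at these counts, and differences within them were not detectable. In whole muscle, fewer cells of a type and less RNA per cell cannot be told apart.

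**Figure D5:**
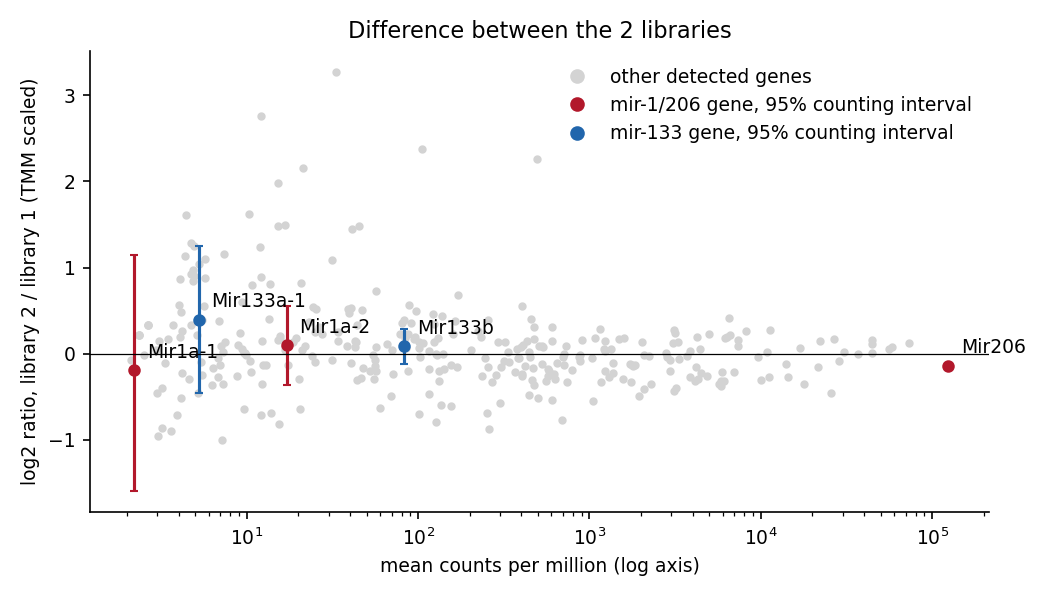
Log2 ratio of library 2 to library 1 after TMM scaling against mean CPM (log axis) for the 335 detected genes (grey), with the mir-1 family genes (red) and mir-133 genes (blue) and their 95% counting intervals. Mir206 lies at -0.14 with an interval narrower than its symbol, and the intervals of the other 4 genes include 0.

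The other muscle-enriched genes gave some context for these values. Mir499 and Mir208b, which lie in introns of slow myosin genes, were called lower in library 2 by the same test, at -0.33 and -0.60 on the log2 scale. Mir486, from the ankyrin gene Ank1, was called higher at 0.22 (adjusted p = 0.0462, exact test), and Mir208a, a gene of the heart, was not called at -0.09 (adjusted p = 0.933, exact test). Mir486b was not matched in the tables. These 4 genes summed to 1564 and 1272 CPM. The 8 skeletal muscle markers used to check the tissue label were Mir499, Mir208b and 6 of the genes described here, all but Mir1b and Mir133c. Of them 7 were detected, and their sums of 130918 and 120607 CPM were nearly all Mir206. Several markers of other cells also differed between the libraries, in either direction. The endothelial Mir126a was at 29518 and 21931 CPM, the leukocyte genes Mir142 and Mir223 summed to 492 and 278 CPM, and the liver gene Mir122 was at 169 and 824 CPM. The smooth muscle genes Mir143 and Mir145a summed to 25509 and 29100 CPM, and the erythroid genes Mir451a and Mir144 to 96.8 and 119 CPM. Within these sums the genes differed. On the log2 scale Mir143 was called higher in library 2 at 0.17, but Mir145a was called lower at -0.12. Mir451a was called higher at 0.40, whereas Mir144 was not called at -0.09. None of 6 neuronal genes of the mir-124 and mir-9 families was detected, with a summed level of 0 CPM in library 1 and 3.23 CPM in library 2. Of the latter, Mir9-3 made up 2.31 CPM (10 counts). Both arms of Mir9-1 occur whole in 3 counted genes, so reads of these arms match several places and are not in these counts. The low counts therefore do not show that neuronal miRNAs were absent. The part of these markers in the difference of Mir206 was not tested.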

How the data were processed

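Small RNA was sequenced in 2 libraries of 1 group. The authors deposited raw counts per gene for each library against mm10 with GENCODE M21, per the labels and the accompanying text. Names of the aligner and counter were not given in the sources used here. In every table stand 3 columns of counts (strand ignored, own strand, opposite strand, as their sums show). The own-strand column was used. The 4 lines that name no gene were left out of totals and tests; multimapping reads were 36.9% and 37.6% of all reads, unmapped reads 8.03% and 9.26%, and reads in no feature 1.70% and 2.09%. Genes assigned 53.4% and 51.1% of the reads. All 2202 identifiers matched GENCODE M21.

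Levels are CPM of gene counts, with detection at 2 CPM in both libraries and a pseudocount of 0.5 CPM on the log2 scale. TMM factors came from edgeR 4.0.16 over the 335 detected genes (R 4.3.3), with DESeq2 1.42.0 size factors as an alternative. Genes were tested across all detected genes with an exact binomial test in scipy 1.17.1 and called at an adjusted p below 0.05. The test was run on simulated Poisson counts without added spread between libraries. It called 85.0% of genes changed 2-fold, 82.0% of those changed 1.5-fold and 2.96% of unchanged genes. The counts were drawn as the test assumes, so this checks the calculation only. It does not show how often unchanged genes are called in real libraries. Intervals are exact at 95%. Python 3.11.15, numpy 2.4.6, pandas 2.3.3 and matplotlib 3.10.9 were used.

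The members and lists were chosen with earlier results of these data known. Named genes were the 8 members, genes sharing a seed with them, the other muscle-enriched genes, the 2 genes nearest in level to each detected member, the 5 neighbouring pairs with the highest ratio, genes overlapping a member and the cell markers. The Fisher's exact tests of the ratios, the division by gene length and the windows of 22 bases were added after values were seen. With 1 group, each p-value asks only whether counts of these libraries differ by more than counting error. The p-values do not measure the spread between animals, and no test between conditions applied.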

Additional observations from a re-analysis of the deposited data

Results flagged for a closer look

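Counts outside the own-strand column exceeded the limit of 3 that a count of 0 allows for a pair of overlapping genes. Mir1b had 91 opposite-strand counts in library 1 and 77 in library 2, and Mir1a-2 had 4 in each library. The same reads are the own-strand counts of the gene on the other strand.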

How the results depend on the processing

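Of the recomputed values for the main comparisons, 29 stayed within their limits, 7 moved and 1 reversed. For single genes 39 stayed and 12 moved. Leaving out 1 library could not move a level, share or ratio beyond its limit, because that limit was the SD of the same 2 libraries. A gene called in neither setting also counted as stayed, whatever its log2 ratio. These tallies are therefore no measure of how robust the values are. Detection at 10 CPM left 3 of the 8 genes, a count in either library gave 7 and ignoring strand gave 4. The summed level of 124438 CPM became 141750 CPM when strand was ignored and 65083 CPM over all reads. Per base of annotated length, chosen after seeing the data, the ratios of Mir206 to Mir133b and of Mir1a-1 to Mir133a-2 became 2453 and 7.43. Ignoring strand reversed the ratio of Mir1a-2 to Mir133a-1, from 3.30 to 0, because Mir1a-2 then had no counts. Mir206 to Mir133b ranked 1 of 95 pairs at 10 CPM and 3 of 123 within 50 kb. Among pairs in which no listed mature arm occurs whole in a second counted gene, it ranked 2 of 78. Mir133b stayed in that set only through the last base of miR-133b-3p, since its first 21 bases also occur in Mir133a-1 and Mir133a-2. The first 18 bases of miR-133b-3p occurred in 3 counted genes against 1 for the whole arm. Mir206 was the member called under each of 4 alternatives, at log2 ratios from -0.21 to -0.12. Of all genes called, 51.6% were higher in library 2 and 55.6% with library totals, but the majority was lower with DESeq2 size factors (43.5% higher), with strand ignored (47.9%) and without a filter on low counts (40.4%). Each library alone gave 5 detected members and a Mir206 to Mir133b ratio of 1387 to 1622, with no test. Mir133a-2, Mir1b and Mir133c had 0 to 4 counts, so counting error is large for them. For Mir133a-2, reads that matched several places are also left out.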
